A study of Rattus norvegicus with 6 samples.

Results

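The genes described here are 5 ligands of the epidermal growth factor (EGF) receptor, Areg, Ereg, Hbegf, Tgfa and Egf, the ErbB3 and ErbB4 ligand Nrg1, the receptors Egfr, Erbb2 and Erbb3, and Errfi1, an inhibitor inside the cell that binds the kinase domain of these receptors. They were chosen by gene name and make up 10 of the 21655 gene names, 38 of the 70376 transcripts and 2 of the 5216 circular RNAs in the tables. The samples were lung tissue of 3 pulmonary fibrosis (PF) model rats and 3 control rats of the Sprague-Dawley strain, 7 weeks old at the start. PF model rats had received 1 dose of bleomycin at 7 mg/kg into the trachea and control rats had received saline, and all lungs were taken on day 28. One library depleted of ribosomal RNA was made from each rat. The model is a chemical lung injury seen at a single time, and each library is a mixture of all cells of the tissue, so fewer cells of a type and less RNA per cell cannot be told apart.

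EGF family ligands are made as membrane-bound precursors that ADAM proteases cut from the cell surface. The released ligand makes ErbB receptors pair and phosphorylate each other, which switches on the RAS-ERK and PI3K-AKT pathways, and Errfi1 is among the genes induced by this signal and shuts the receptor down in turn. In the lung the pathway is known for its role in epithelial growth and repair after injury, with amphiregulin (Areg) and the membrane-shed ligands Hbegf and Tgfa as ligands, and neuregulin 1 (Nrg1) acting through the Erbb2 and Erbb3 pair on airway epithelium.

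None of the 10 genes differed between PF model and control lungs on day 28 by the thresholds of the study, an unadjusted p of at most 0.05 together with a log2 ratio, taken between the groups' average FPKM, at or beyond 1 in either direction. The level of a gene was the sum of FPKM (fragments counted, normalized for transcript length and library size) over all transcripts under its name, and the test was limma on log2(FPKM + 1), the scale of the log2 fold changes given here. Against these 0 of 10, 298 of 19645 genes tested were called, a background of 1.52%. At an unadjusted p of at most 0.05 alone the count was also 0 of 10, with a background of 4.91%, and after Benjamini-Hochberg adjustment it was 0 of 10, with a background of 0.0102%. Adjusted p in limma ran from 0.933 to 0.999 over the 10 genes. Their log2 fold changes ran from -0.50 for Ereg to 0.17 for Areg, with a median of -0.08 beside -0.01 over all genes tested, and 3 were above 0 and 7 below. In 1 of 10 genes, Hbegf, the 3 model lungs did not overlap the 3 control lungs, which happened in 10.7% of all genes tested.

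Lung markers were found at high levels in all 6 libraries, for example surfactant protein C (Sftpc), the alveolar type 2 cell marker, at 2410 to 3594 FPKM in control and 3026 to 4146 FPKM in model lungs. Of 14 lists of cell type markers, 2 had sums that did not overlap between the groups. The 5 fibroblast markers summed to 290.3 to 308.5 FPKM in control and 314.4 to 407.8 FPKM in model lungs, of which Col3a1 alone made up 153.6 to 232.5 FPKM. Dcn and Pdgfra of the same list had model to control ratios of 0.902 and 0.955. The 4 mast cell markers summed to 28.6 to 32.0 and 33.7 to 38.0 FPKM, nearly all of it Kit at 25.0 to 34.3 FPKM, while the ratios of Cpa3, Fcer1a and Ms4a2 were 0.963, 0.467 and 0.404. Not all listed markers were found by name, with 2 of 4 found for endothelium. No tested marker was called. Collagen III (Col3a1) and Kit were the only tested cell type markers with an unadjusted p of at most 0.05, at 0.037 and 0.044 in limma with an adjusted p of 0.933 each. Model rat 3 had the highest fibroblast sum and stood below the other 5 rats in the summed level of 11 immediate early genes, at 281.9 FPKM against 402.8 to 464.2 FPKM. It also had the highest sums of cardiac muscle markers, at 23.5 FPKM against 5.69 to 10.3 FPKM, and of smooth muscle markers, at 133.3 FPKM against 77.1 to 103.2 FPKM. Of the smooth muscle list, Acta2 and Myh11 were highest in model rat 3 and Tagln in control rat 2. Myh6, the cardiac myosin, was above 0 in fewer than 3 rats and was not tested. It was at 5.11 FPKM in model rat 3 and at most 0.034 FPKM elsewhere. Values without this rat are given for each member below.

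The gene sums of most members were made up largely of something other than the known transcript. Of the 38 transcripts, 16 matched an annotated transcript, 5 were assembled transcripts sharing a splice junction with one, 15 lay wholly inside an intron and 2 lay just outside the gene. The 17 in the last groups held on average 77.3% of the summed FPKM of Ereg, 75.5% of Nrg1, 63.7% of Egf, 62.9% of Tgfa, 60.8% of Areg, 57.1% of Egfr, 43.4% of Errfi1 and 37.8% of Erbb3, and none of Hbegf or Erbb2. Since FPKM divides by length, a short intronic piece with few reads can weigh as much as a full transcript with many. For the 10 members, levels are therefore given for the annotated transcripts first and for the sum beside it.

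**Figure D1:**
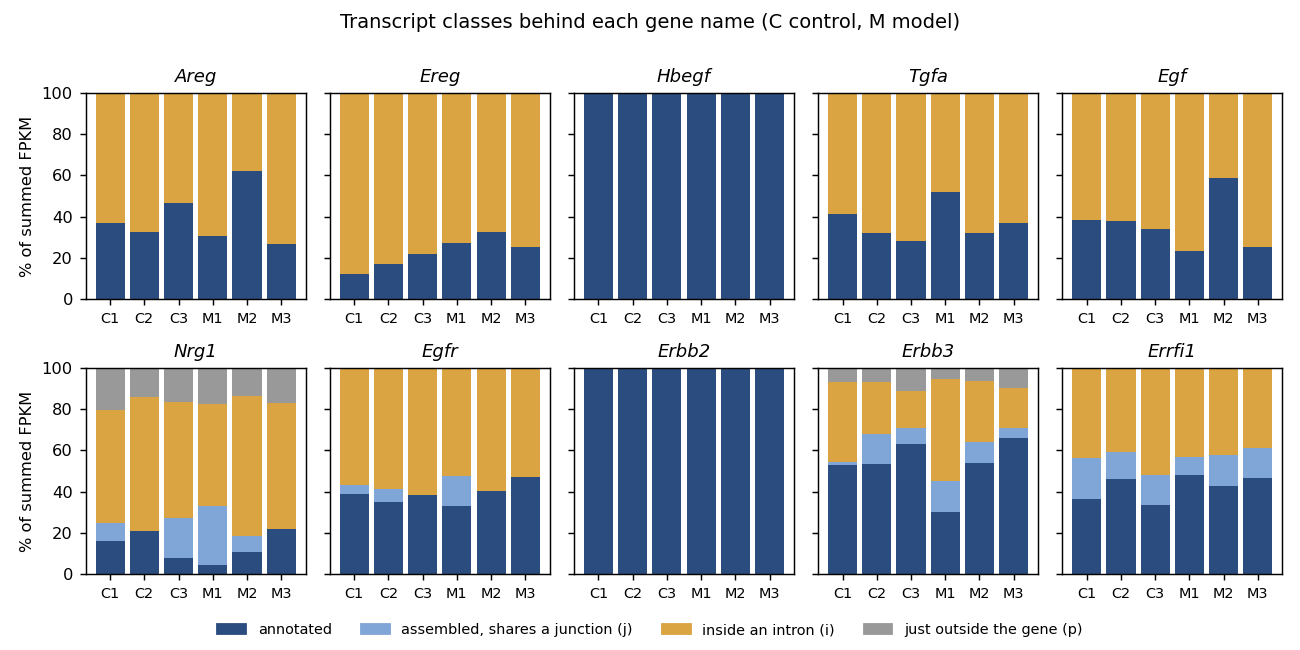
Share of each gene's summed FPKM (percent, vertical axis) held by 4 classes of transcript, in control rats C1 to C3 and model rats M1 to M3. Hbegf and Erbb2 were made up of annotated transcripts alone, and the annotated share of Ereg ran from 12.0% to 32.5%.

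By annotated transcripts the inhibitor and one receptor were highest. Errfi1 had a mean of 10.7 FPKM over the 6 rats and Erbb3 8.36 FPKM, and their ranges overlapped. After a gap came Egfr at 3.66, Hbegf at 3.46, Erbb2 at 3.08 and Tgfa at 2.27 FPKM, each overlapping the next. After a further gap came Nrg1 at 0.974, Areg at 0.973, Egf at 0.700 and Ereg at 0.433 FPKM, again each overlapping the next. In this order only Erbb3 and Egfr, and Tgfa and Nrg1, were neighbours whose values did not overlap between rats.

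**Figure D2:**
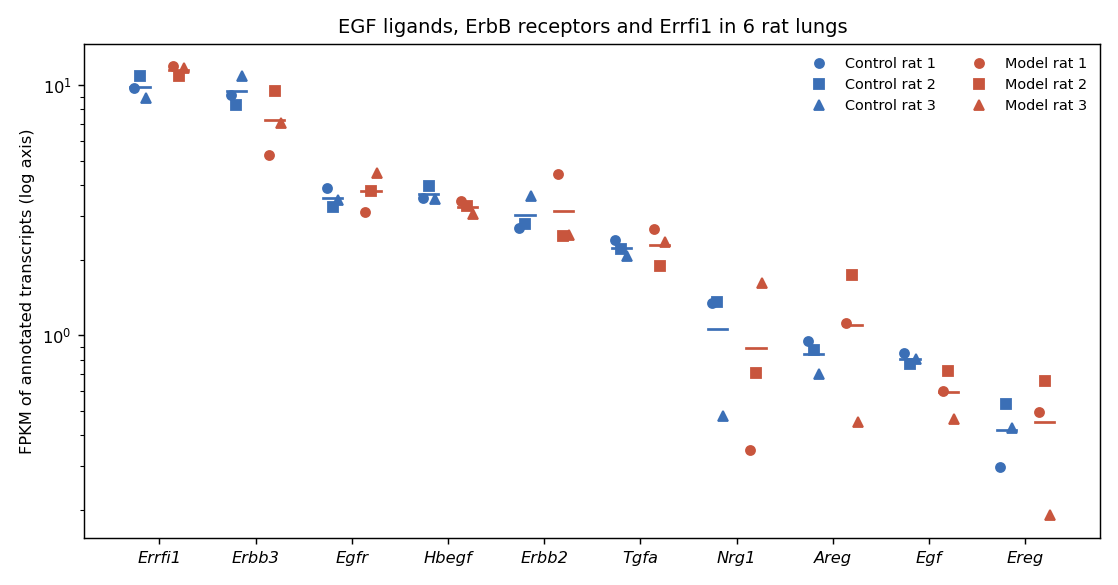
FPKM of annotated transcripts (vertical axis, log scale) for the 10 genes in each of 6 rats, control in blue and model in red, with the group mean as a bar. Genes are in order of mean level, from Errfi1 at 10.7 FPKM to Ereg at 0.433 FPKM.

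Areg, a ligand induced in injured epithelium, varied more between the model rats than between the control rats. Its one annotated transcript (ENSRNOT00000003703, minus strand of chromosome 14, 18521930 to 18531179 in the coordinates of the tables, 6 exons) was at 0.949, 0.875 and 0.703 FPKM in control rats 1 to 3 and at 1.12, 1.74 and 0.451 FPKM in model rats 1 to 3. Model rat 2 was the highest of all 6 and model rat 3 the lowest, so the control values lay between those of the model rats. The means were 0.842 ± 0.126 FPKM in control and 1.10 ± 0.645 FPKM in model lungs (SD, n = 3 each), with a log2 fold change of 0.15 (95% interval -0.46 to 0.76, limma adjusted p = 0.989). Without model rat 3 the log2 fold change was 0.39, with an unadjusted limma p of 0.081 and an adjusted p of 0.992. The deposited coverage of this transcript corresponds to 23.6 to 87.2 reads per library, so counting error alone is large at this level. With the intronic piece of 363 bases added, the sum was 2.26 ± 0.649 FPKM in control and 2.71 ± 0.974 FPKM in model lungs (limma adjusted p = 0.954).

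Ereg (epiregulin), the neighbour of Areg on chromosome 14, was the lowest ligand. Its annotated transcript (ENSRNOT00000003716, 18576355 to 18591394, minus strand, 5 exons) was at 0.298, 0.533 and 0.425 FPKM in control and at 0.495, 0.659 and 0.190 FPKM in model rats. As for Areg, model rat 2 was highest and model rat 3 lowest, and the groups overlapped. The log2 fold change was 0.02 (95% interval -0.33 to 0.37, limma adjusted p = 0.998), from 18.4 to 60.8 reads per library, and it was 0.15 without model rat 3. The gene sum gave another picture, at 2.52 ± 0.605 FPKM in control and 1.53 ± 0.681 FPKM in model lungs with a log2 fold change of -0.50 (95% interval -1.10 to 0.09), an unadjusted limma p of 0.086 and an adjusted p of 0.933. That difference lay in an intronic piece of 290 bases with no strand (MSTRG.11159.1, 18585803 to 18586092), which was at 2.18, 2.61 and 1.51 FPKM in control and at 1.31, 1.37 and 0.561 FPKM in model rats. All 3 control values of the piece were above all 3 model values, from 7.48 to 32.2 reads per library, and its limma p was 0.056 with an adjusted p of 0.945. Without control rat 3 the piece passed both thresholds, as did 2109 of all 63773 transcripts tested in that setting. It had a log2 ratio of mean FPKM of -1.15 and a log2 fold change of (FPKM + 1) of -0.73. Its unadjusted limma p was 0.0396 and its adjusted p 0.999995. Without model rat 3 the piece was at a log2 ratio of -0.65 and a log2 fold change of -0.39 (unadjusted limma p of 0.131). The log2 fold change of the gene sum without model rat 3 was -0.26 (unadjusted limma p of 0.221). The annotated share of Ereg was thus 12.0%, 17.0% and 22.0% in control and 27.4%, 32.5% and 25.3% in model rats. In the exact two-sided permutation test this gave p = 0.1, the smallest that 3 against 3 allows, and 0.8 after adjustment over the 8 genes with more than one class.

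Hbegf (heparin-binding EGF-like growth factor) was the ligand with the steadiest level. Its single transcript (ENSRNOT00000025157, chromosome 18, 29329764 to 29340403, minus strand, 6 exons) was at 3.55, 3.94 and 3.50 FPKM in control and at 3.44, 3.29 and 3.05 FPKM in model rats. Every control value was above every model value, but the lowest control and highest model values were close. The means were 3.66 ± 0.241 and 3.26 ± 0.197 FPKM, a ratio of 0.891, with a log2 fold change of -0.13 (95% interval -0.40 to 0.14, limma adjusted p = 0.933). A doubling or halving of Hbegf lay outside this interval. Model rat 3 was again the lowest, and without it the log2 fold change was -0.09.

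Tgfa (transforming growth factor alpha), which binds the EGF receptor with an affinity like that of EGF, was spread evenly over both groups. Its annotated transcript (ENSRNOT00000057441, plus strand, 6 exons) was at 2.41, 2.21 and 2.08 FPKM in control and at 2.66, 1.90 and 2.36 FPKM in model rats. The model rats held both the highest and the lowest value, and the log2 fold change was 0.03 (95% interval -0.33 to 0.38, limma adjusted p = 0.998), or 0.01 without model rat 3. Its intronic pieces brought the gene sum to 6.72 ± 0.785 FPKM in control and 5.80 ± 0.636 FPKM in model lungs, with a log2 fold change of -0.18 (limma adjusted p = 0.933), or -0.24 without model rat 3.

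Egf itself, made mainly in kidney and salivary gland, was low in lung. Its annotated transcripts, nearly all from the 21-exon ENSRNOT00000087007 (68820615 to 68892944, plus strand), summed to 0.848, 0.765 and 0.807 FPKM in control and to 0.601, 0.716 and 0.463 FPKM in model rats. The control values were close together and all above the model values. The means were 0.807 ± 0.041 and 0.593 ± 0.127 FPKM, a ratio of 0.736, with a log2 fold change of -0.18 (95% interval -0.44 to 0.08, limma adjusted p = 0.972). Without model rat 3, the lowest, it was -0.12 with an unadjusted p of 0.321. The second annotated transcript reached at most 0.009 FPKM, and the gene sum with a spliced intronic piece overlapped between the groups at 2.20 ± 0.176 and 1.87 ± 0.662 FPKM.

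Nrg1, a ligand of Erbb3 and Erbb4 known from nerve and heart development, had 10 transcripts, of which 4 were annotated. The annotated transcripts summed to 1.35, 1.36 and 0.476 FPKM in control and to 0.347, 0.704 and 1.61 FPKM in model rats. High and low values occurred in both groups, with a 4.64-fold range over the 6 rats, the widest of the 10 genes by annotated transcripts. An assembled transcript that shares a junction with them (MSTRG.14361.5) was highest in model rat 1, at 2.32 FPKM, where the annotated transcripts were lowest. With it added the range was 2.16-fold, below the 3.86-fold and 3.46-fold ranges of Areg and Ereg, and the log2 fold change was 0.05. For the annotated transcripts alone the log2 fold change was -0.15 (95% interval -0.92 to 0.62, limma adjusted p = 0.990). Without model rat 3, the highest by annotated transcripts, it was -0.41 with an unadjusted limma p of 0.193. Which annotated transcript carried the signal differed from rat to rat. ENSRNOT00000014268, with 13 exons, was listed at 0 FPKM in model rat 1 and reached 0.681 FPKM in control rat 2, and ENSRNOT00000013991, with 9 exons, ranged from 0.148 FPKM in control rat 3 to 0.979 FPKM in control rat 1. ENSRNOT00000081522 was above 0 in fewer than 3 rats and was not tested. An intronic piece of 1635 bases (MSTRG.14363.1) was at 0.954, 0.884 and 0.793 FPKM in control and at 1.35, 1.16 and 1.76 FPKM in model rats, with no overlap and a limma p of 0.063 (adjusted p = 0.945). The gene sum was 6.91 ± 1.27 and 7.37 ± 0.733 FPKM.

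Egfr, the receptor for Areg, Ereg, Hbegf, Tgfa and Egf, had the closest group means of the 10 genes in the gene sums. Its 28-exon annotated transcript (ENSRNOT00000006087, chromosome 14, 99919485 to 100098796, plus strand) was at 3.88, 3.26 and 3.48 FPKM in control and at 3.11, 3.77 and 4.45 FPKM in model rats. The model rats held the lowest and the highest value. The log2 fold change was 0.07 (95% interval -0.30 to 0.43, limma adjusted p = 0.990) for the annotated transcript and -0.00 (95% interval -0.20 to 0.19, limma adjusted p = 0.999) for the sum, at 9.46 ± 0.467 and 9.42 ± 0.043 FPKM. A change of 1.5-fold in the sum would lie outside this interval. Without model rat 3 the values were -0.03 for the annotated transcript and -0.00 for the sum. Of 3 intronic pieces, 2 are given on the opposite strand, and since the strand setting of the counting is not given in the sources used here, their reads cannot be told apart from those of Egfr introns. The piece on the same strand, MSTRG.12093.1, was at 1.86, 2.07 and 2.01 FPKM in control and at 1.48, 1.78 and 1.52 FPKM in model rats, without overlap (log2 fold change -0.20, limma adjusted p = 0.945).

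Erbb2, the receptor with no ligand of its own that pairs with the others, was at 2.68, 2.79 and 3.61 FPKM in control and at 4.40, 2.50 and 2.52 FPKM in model rats. Model rat 1 was highest and the other model rats were the 2 lowest. Means were 3.03 ± 0.507 and 3.14 ± 1.09 FPKM, with a log2 fold change of 0.02 (95% interval -0.49 to 0.52, limma adjusted p = 0.998), or 0.12 without model rat 3. Of its 3 annotated transcripts ENSRNOT00000049070 carried nearly all of the signal, and ENSRNOT00000078744, at or below 0.046 FPKM, was above 0 in fewer than 3 rats and was not tested.

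Erbb3, the kinase-impaired partner that binds neuregulins, was the highest receptor. Its annotated transcript (ENSRNOT00000006796, 28 exons) was at 9.15, 8.31 and 10.9 FPKM in control and at 5.28, 9.44 and 7.09 FPKM in model rats, from 1518 to 3164 reads per library. The 2 lowest values were model rats, and model rat 2 lay within the control range. Means were 9.46 ± 1.33 and 7.27 ± 2.09 FPKM, a ratio of 0.769, with a log2 fold change of -0.36 (95% interval -0.88 to 0.15, limma adjusted p = 0.972), and -0.36 also without model rat 3. In the sum, at 16.8 ± 0.993 and 15.2 ± 3.90 FPKM, model rat 3 was lowest at 10.7 FPKM and the other model rats were the 2 highest. An intronic piece of 216 bases made up 8.52 FPKM of the sum in model rat 1 and 2.08 FPKM in model rat 3. The log2 fold change of the sum was -0.16, and 0.06 without model rat 3.

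Errfi1 (also called Mig6) had the highest level and an annotated transcript that was higher in all model rats than in any control rat. ENSRNOT00000085315 (chromosome 5, 167952728 to 167966009, plus strand, 4 exons) was at 9.79, 10.906 and 8.92 FPKM in control and at 11.9, 10.920 and 11.7 FPKM in model rats. The groups were separated by the small gap between control rat 2 and model rat 2. Means were 9.87 ± 0.997 and 11.5 ± 0.515 FPKM, a ratio of 1.17, with a log2 fold change of 0.21 (95% interval -0.04 to 0.46), an unadjusted limma p of 0.091 and an adjusted p of 0.972. It was 0.19 without model rat 3. With the junction-sharing transcripts added the groups overlapped, at 15.2, 14.03 and 12.8 FPKM in control and at 14.03, 14.8 and 15.3 FPKM in model rats, and the log2 fold change was 0.07. Of these, MSTRG.29569.1 was at 0.418 FPKM in model rat 1 and at 1.32 to 1.88 FPKM in the other rats. The same locus gave an unspliced piece of 5992 bases on the opposite strand (MSTRG.29570.1), at 11.8, 9.69 and 13.8 FPKM in control and at 10.7, 10.7 and 9.73 FPKM in model rats. That piece had a log2 fold change of -0.15 (limma adjusted p = 0.945) and could not be told apart from Errfi1 pre-mRNA, since the strand setting is not given. The sum was 25.7 ± 1.77 and 25.1 ± 0.383 FPKM, with a log2 fold change of -0.03 (95% interval -0.22 to 0.15, limma adjusted p = 0.973).

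**Figure D3:**
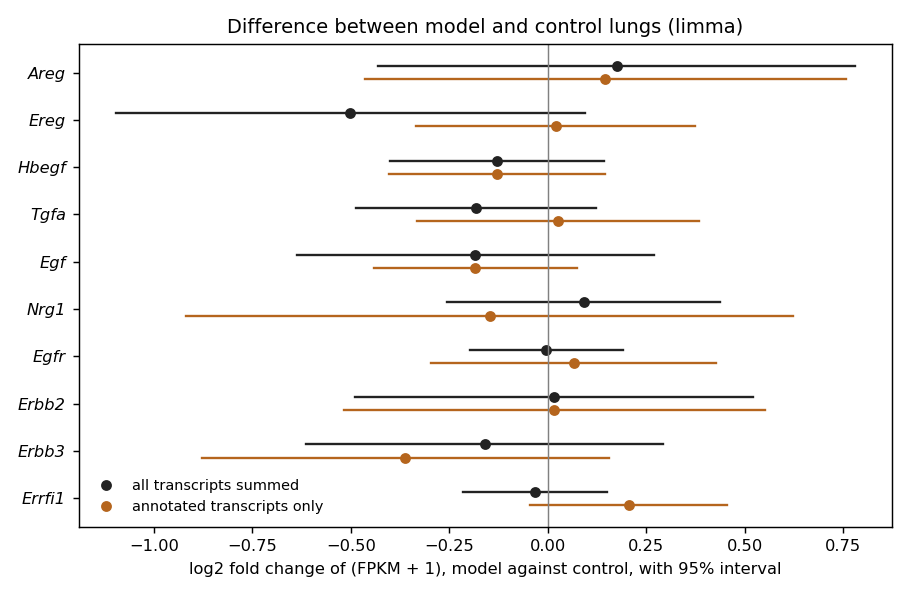
Log2 fold change of (FPKM + 1), model against control (horizontal axis), with its 95% interval from limma, for all transcripts summed (black) and annotated transcripts only (brown). All 20 intervals include 0, and the point for Ereg lies at -0.50 for the sum and at 0.02 for the annotated transcript.

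With annotated transcripts alone, again 0 of 10 genes were called, with a background of 2.74%, and 3 of 10 (Hbegf and Egf lower, Errfi1 higher in model lungs) had groups that did not overlap, with a background of 9.83%. With junction-sharing transcripts added it was 2 of 10 (Hbegf and Egf), with a background of 10.2%. Among the 36 transcripts tested of 38, 0 were called, with a background of 2.98% over 64867 transcripts. The groups did not overlap for 6 of the 36, with a background of 10.4%. They are the transcripts of Hbegf, Egf and Errfi1 and the intronic pieces of Ereg, Egfr and Nrg1 given above, 2 of them higher and 4 lower in model lungs. Besides Areg and Ereg, Egf and Nrg1 rested on few reads from annotated transcripts, 85.2 to 157.6 and 64.0 to 255.8 per library, while the receptors and Errfi1 had at least 515.9 in each library.

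The sequence before the start site is shown for Areg, a ligand with a 3.86-fold range between model rats, for Errfi1, whose annotated transcript was higher in all model rats, and for Egfr, whose sum was nearly the same in both groups. The 250 bases before each start site are from RefSeq (build GRCr8, another build than the coordinates above), 5′ to 3′ on the gene's strand, and capitals mark the motifs found. Promoters of 7 of the 10 genes were matched. The motifs searched on both strands were TGACGTCA, the site of CREB, TGANTCA, the site of AP-1, and TATAAA, the TATA box.
Areg: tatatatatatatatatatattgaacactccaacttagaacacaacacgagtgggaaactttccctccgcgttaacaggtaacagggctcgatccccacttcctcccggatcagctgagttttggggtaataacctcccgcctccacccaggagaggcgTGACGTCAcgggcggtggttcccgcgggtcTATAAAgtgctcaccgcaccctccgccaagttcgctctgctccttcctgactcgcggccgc
Errfi1: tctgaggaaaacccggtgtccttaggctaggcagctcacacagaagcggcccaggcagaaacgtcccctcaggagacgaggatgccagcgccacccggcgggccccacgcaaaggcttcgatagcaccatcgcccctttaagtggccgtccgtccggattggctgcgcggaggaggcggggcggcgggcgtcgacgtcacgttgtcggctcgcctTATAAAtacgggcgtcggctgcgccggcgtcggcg
Egfr: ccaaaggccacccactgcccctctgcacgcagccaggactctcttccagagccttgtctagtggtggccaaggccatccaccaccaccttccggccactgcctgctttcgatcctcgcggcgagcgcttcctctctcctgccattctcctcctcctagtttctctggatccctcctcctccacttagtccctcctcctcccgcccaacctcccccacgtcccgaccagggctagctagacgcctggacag
Areg held the CREB site with its first base at -91 and a TATA box at -61, and Errfi1 held a TATA box at -35. The CREB site was found in 1 of the 7 promoters and in 1.59% of 33469 rat promoters of the same length, the AP-1 site in 0 of 7 and in 6.34%, and the TATA box in 2 of 7 and in 12.9%. These are letter matches in a window, and no binding was measured here.

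Areg, Ereg, Hbegf and Egf shared their lowest annotated value in model rat 3. This rat was also lowest for 8 of 11 immediate early genes and highest in the sums of cardiac and smooth muscle markers. Nrg1 and Egfr had their highest annotated value in that rat, and Tgfa was lowest in model rat 2. By gene sums, Areg was lowest in control rat 3 and Egf in model rat 2. The share of all genes that were lowest in model rat 3 is not given here. Fos was at 15.7 FPKM in model rat 3 against 27.8 to 40.4 FPKM in the other rats, and Atf3 was at 15.2 against 30.2 to 41.4 FPKM. Areg and Ereg had 3.86-fold and 3.46-fold ranges over the 6 rats, with model rat 2 at the top and model rat 3 at the bottom. The part of the early gene and muscle marker levels in the ligand values was not tested. Of the 11 immediate early genes 0 were called between the groups (background 1.52%), and Ier2 alone had an unadjusted limma p of at most 0.05 (0.046, adjusted p = 0.933).

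**Figure D4:**
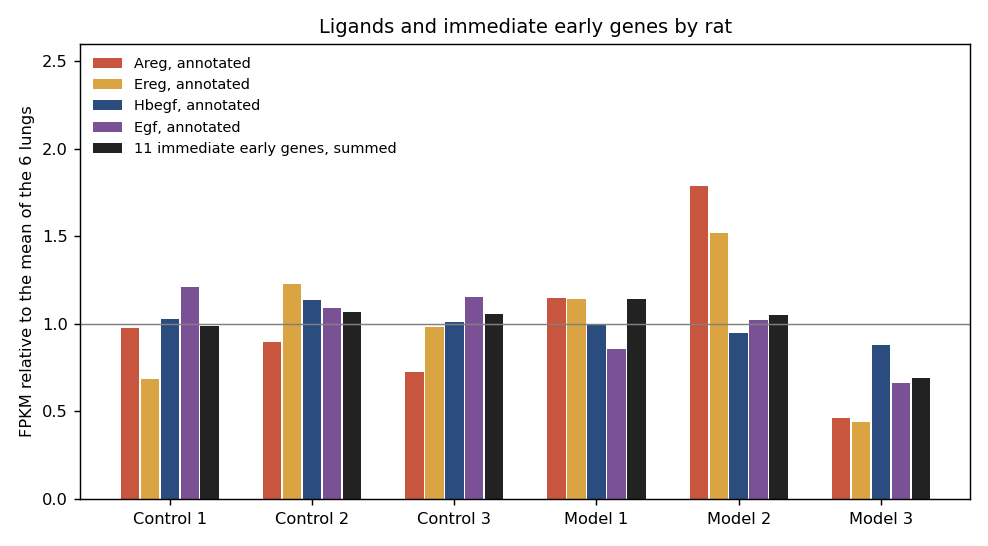
FPKM relative to the mean of the 6 lungs (vertical axis), by rat. Bars are the annotated transcripts of the 4 ligands that were lowest in model rat 3, and the sum of 11 immediate early genes (black). All 5 bars are lowest in model rat 3, where the early genes summed to 281.9 FPKM.

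Other genes of the pathway were also without a call in their gene sums. Of 56 genes in 5 lists, 53 were tested, 0 were called in either direction (background 1.52%), and 5 had groups that did not overlap (background 10.7%). The median log2 fold change of the 53 was 0.00 beside -0.01 over all genes, and the range was -0.34 to 0.28. Epgn, Nrg3 and Mcl1 were not analysed here. From annotated transcripts alone, again 0 of the 53 were called (background 2.74%) and 4 had groups that did not overlap (background 9.83%), with a median of 0.03 and a wider range of -1.63 to 1.16. Without model rat 3 this count of calls was 1, beside 532 called of all 18589 genes tested in that setting. The called gene was Spry4, an inhibitor of RAS signalling, whose annotated level was 8.33, 9.70 and 11.2 FPKM in control and 0.182, 3.68 and 8.85 FPKM in model rats. Its log2 fold change was -2.18 without that rat (unadjusted limma p of 0.016, adjusted p = 0.992) and -1.49 with it (adjusted p = 0.972). The sum of Spry4 was at 13.4, 13.8 and 13.2 FPKM in control and at 15.7, 7.50 and 9.55 FPKM in model rats. Its log2 fold change over all 6 rats was -0.34 (limma adjusted p = 0.933). Model rat 1, lowest in the annotated level of Spry4, was highest in the sum. From annotated transcripts 1 of the 53 had an unadjusted limma p of at most 0.05, beside 825 of all 18967 genes tested. This was Rnf41, a ligase that acts on Erbb3, at 5.32 ± 0.948 and 7.35 ± 0.400 FPKM (unadjusted limma p of 0.026, adjusted p = 0.972), while its sum had a log2 fold change of 0.13. Spry4 and Rnf41 were singled out after their values were seen. Levels in the next paragraphs are gene sums unless annotated transcripts are named.

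By role, the other ligands and Erbb4 (4 genes tested) had a median of -0.07. Nrg2, a neuregulin, was at 22.3 ± 1.94 FPKM in control and 26.5 ± 6.25 FPKM in model lungs, with annotated transcripts at only 1.63 ± 0.239 and 1.61 ± 0.318 FPKM, and Btc, betacellulin, was near 0 at 0.127 ± 0.063 and 0.065 ± 0.031 FPKM. Nrg4, an Erbb4 ligand, was at 5.74 ± 1.49 and 5.04 ± 1.08 FPKM. The 8 sheddases and iRhoms, which release the ligands or guide the protease that does, had a median of -0.03. Adam17, the main protease for Areg, Ereg, Hbegf and Tgfa, was at 22.1 ± 3.29 and 23.6 ± 2.23 FPKM. Its annotated transcripts varied widely, at 2.68, 14.6 and 1.75 FPKM in control and 13.3, 5.33 and 18.4 FPKM in model rats, with a log2 fold change of 1.16 (95% interval -0.70 to 3.02, limma adjusted p = 0.972) beside 0.10 for the sum. Adam10, which releases Egf and Btc, was at 21.8 ± 0.871 and 20.1 ± 0.916 FPKM. The control values of Adam10 were all above the model values (limma adjusted p = 0.933). Adam12 and Adam15 were at 26.8 ± 3.25 and 24.5 ± 3.94 FPKM and at 11.9 ± 1.14 and 13.1 ± 0.552 FPKM.

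The 16 adaptors and kinases of the RAS-ERK cascade had a median of 0.01. Grb2, the adaptor that couples the receptors to RAS, was at 14.4 ± 0.633 and 12.7 ± 1.63 FPKM, with no overlap between the groups. Its annotated transcripts were at 9.13, 7.97 and 9.77 FPKM in control and at 0 (as listed), 7.42 and 2.94 FPKM in model rats, again without overlap, with a log2 fold change of -1.63 (95% interval -3.47 to 0.22, limma adjusted p = 0.972) beside -0.18 for the sum. Without model rat 3 it was -1.77. Braf, a kinase below RAS, was at 15.5 ± 0.876 and 12.9 ± 1.82 FPKM (log2 fold change -0.26, limma adjusted p = 0.933), again without overlap, while its annotated transcripts, at 0.930 ± 0.435 and 0.973 ± 0.311 FPKM, overlapped. Mapk3, the kinase ERK1, was the highest of the list at 51.2 ± 6.82 and 57.6 ± 10.1 FPKM.

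The 16 feedback inhibitors had a median of 0.02. Cblb, a ubiquitin ligase that sends receptors to degradation, was at 34.0, 32.8 and 35.8 FPKM in control and at 29.6, 30.8 and 31.0 FPKM in model rats. All control values were above all model values, and with a log2 fold change of -0.16 (95% interval -0.33 to 0.00) its limma p of 0.051 was the smallest of the 53 genes by their sums (adjusted p = 0.933). Its annotated transcripts overlapped, at 4.92 ± 1.07 and 4.21 ± 0.023 FPKM. Spred1, an inhibitor of RAS, was at 33.8 ± 3.12 and 33.3 ± 2.69 FPKM, and Lrig3 at 6.60 ± 0.491 and 5.63 ± 0.720 FPKM. The 10 ERK-responsive genes tested had a median of -0.07, with cyclin D1 (Ccnd1) at 33.6 ± 3.75 and 38.0 ± 5.63 FPKM, Phlda1 at 31.0 ± 2.18 and 29.1 ± 4.13 FPKM, and Dusp6, a phosphatase of ERK, at 20.5 ± 0.904 and 19.3 ± 0.746 FPKM.

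**Figure D5:**
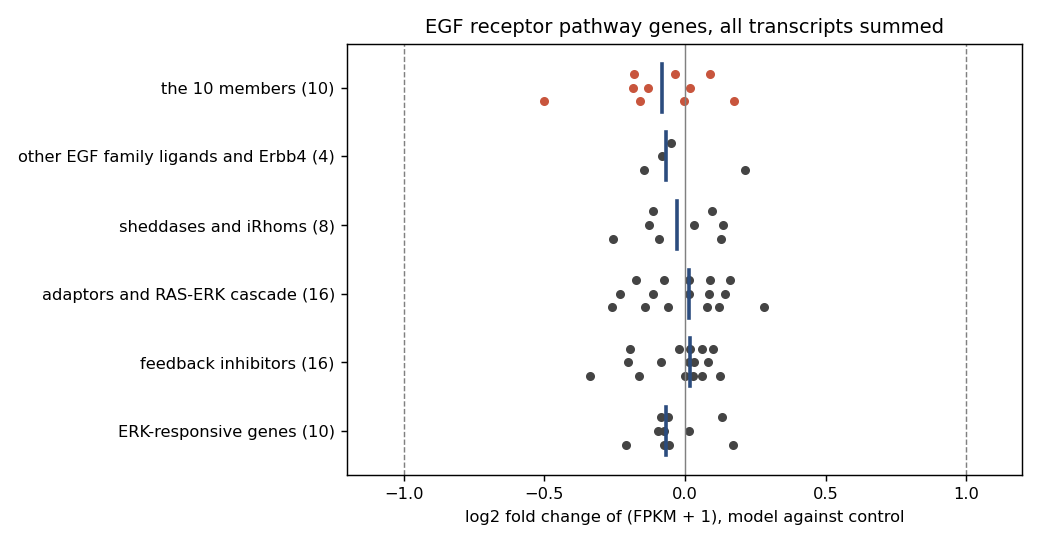
Log2 fold change of (FPKM + 1), model against control (horizontal axis), for the 10 members (red) and for 5 lists of pathway genes (grey), 1 point a gene, spread vertically for legibility. Blue bars are medians and dashed lines mark 1 and -1, and all points lie between -0.50 and 0.28.

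Circular RNAs from these genes were rare. ciRNA178, from an intron of Errfi1 (chromosome 5, 167962683 to 167963494, plus strand, 812 bases), had 4 back-splice reads in control rat 3, 2 in model rat 3 and 0 in the other 4 libraries. The 4 reads were 0.150% of the 2667 back-splice reads of that library (exact 95% binomial interval 0.041% to 0.384%), and the 0 counts allow shares of up to 0.116% to 0.147%. circRNA1527, from 9 exons of Egfr (chromosome 14, 100052683 to 100066787), had 1 read, in control rat 2. With 6 reads and 1 read in all, neither reached the 10 reads needed for the edgeR test, and a difference between the groups was not detectable at this depth. Such counts were common, since 56.3% of the 5216 circular RNAs rested on a single read. No circular RNA came from the other 8 genes.

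Over the 6 rats, genes whose log2(FPKM + 1) closely followed the sums of Areg, Hbegf and Errfi1 were taken from 14319 genes with a mean of at least 1 FPKM. For Areg they included Trip6 (Pearson r = 0.989, n = 6 rats), Ice2 (0.986) and Plcg1 (0.986), for Hbegf AABR07008016.1 (0.987) and Cox11 (0.979), and for Errfi1 Kif20a (0.975) and AABR07016883.1 (0.974). With so few samples r was above 0.9 for 104, 99 and 79 genes, and all genes share the same 6 libraries, so the names are a description only.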

How the data were processed

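Whole lungs of 3 control and 3 PF model rats were sequenced, with one library per rat, and samples were grouped by their labels. The authors trimmed reads with Cutadapt. The study's methods name Bowtie2 and Tophat2, and the submitters' processing notes name HISAT2, StringTie and TopHat. The genome build is not given in the sources used here. The authors deposited FPKM per transcript from StringTie and Ballgown, normalized for length and library, and the unnormalized coverage per base (a signal) beside it. For circular RNAs the authors deposited counts of back-splice reads from Tophat-fusion and CIRCexplorer, and SRPBM, a signal scaled to library size that was not tested here.

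From these files FPKM was summed by gene name over all 70376 transcripts. Genes or transcripts above 0 FPKM in at least 3 of 6 samples were tested with limma 3.58.1 (variance trend, two-sided) on log2(FPKM + 1), so fold changes of low genes are understated. Adjusted p-values are Benjamini-Hochberg over all features tested. Circular RNAs with at least 10 reads were tested with edgeR 4.0.16 (quasi-likelihood, TMM), with DESeq2 1.42.0 as an alternative. Annotated shares were compared by exact permutation over samples. Reads per transcript were estimated from coverage, length and the study's read length. Summed FPKM per library ran from 510208 to 597647. Back-splice reads ran from 2183 to 2667 in control and from 2037 to 2964 in model libraries, and their intervals and zero limits cover counting error only. Samples come from separate rats. Scripts were tested on simulated data.

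Named genes were all 10 members with their isoforms and circular RNAs, the 2 highest and the 2 of smallest p in each pathway list, any called gene, and the 3 closest patterns of Areg, Hbegf and Errfi1. Some genes that this rule names are not reported here. Which markers to name was decided with their values in view. The members, lists and tests were chosen with earlier results of these data known. Alternatives were other pseudocounts, filters, scalings, sums and models, and each rat left out.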

Additional observations from a re-analysis of the deposited data

How the results depend on the processing

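In every alternative run, 0 members were called at gene level. Pathway genes called numbered 0 in all but 1 alternative, that of annotated transcripts only and without model replicate 3. There Spry4 was called (count 1, log2 fold change -2.18), beside 532 called of all 18589 genes tested. Neither member circular RNA had enough reads to enter the main edgeR test or DESeq2, so these could not show a difference. In edgeR with no filter on reads, the unadjusted p was 0.67 for ciRNA178 and 0.37 for circRNA1527. With at least 4 reads required, only ciRNA178 entered edgeR, with an unadjusted p of 0.66. Called transcripts of the members numbered 0 in each alternative except without control replicate 3. There the Ereg intronic piece MSTRG.11159.1 was called (count 1, log2 ratio of mean FPKM -1.15, log2 fold change -0.73, unadjusted limma p of 0.0396, adjusted p = 0.999995). In the same setting 2109 of 63773 transcripts were called. Leaving out rats otherwise gave 0 called member transcripts. Hbegf and Egf kept their direction in all 20 alternatives at gene level, with log2 fold changes of -0.18 to -0.07 and -0.35 to -0.01. These alternatives are not independent. Hbegf has a single transcript, so choosing which transcripts to sum could not change its value. For Egf, annotated transcripts, junction-sharing transcripts and locus sums gave the same -0.18. Replicate numbers are shared by the groups, but same-numbered rats did not deviate together (correlations 0.065, 0.028 and -0.078). The labels state no pairing, and these correlations cannot exclude a shared step that touches part of the genes. With the replicate block 0 members were called, and Ereg had a log2 fold change of -0.50 with a limma p of 0.024 (adjusted p = 0.924).

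Uncalled values changed sign under several alternatives. With annotated transcripts only, Adam17 was 1.16 and Grb2 -1.63, against 0.10 and -0.18 for the sums. With an F test that has a library term, the log2 fold changes that crossed 0 were Areg -0.24, Nrg1 -0.085, MSTRG.29570.1 0.035, Btc 0.015 and Nrg4 0.11. With FPKM rescaled to TPM, the log2 fold changes that crossed 0 were Egfr 0.076, Errfi1 0.049 and Spred1 0.064. With annotated transcripts only, the log2 fold changes that crossed 0 were Ereg 0.019, Tgfa 0.026, Nrg1 -0.15, Egfr 0.066, Errfi1 0.21, Nrg2 -0.015, Adam12 0.015, Braf 0.041, Lrig3 0.032, Spred1 0.050 and Dusp6 0.049. With annotated transcripts only and without model replicate 3, the log2 fold changes that crossed 0 were Ereg 0.15, Tgfa 0.011, Nrg1 -0.41, Errfi1 0.19, Nrg2 -0.080, Adam12 0.16, Braf 0.18, Mapk3 -0.044, Lrig3 0.058, Spred1 0.043 and Phlda1 0.026. With a length-weighted sum, the log2 fold changes that crossed 0 were Tgfa 0.0018, Egfr 0.0015, Adam17 -0.087, Grb2 0.038 and Rnf41 -0.0020. With annotated and junction-sharing transcripts only, the log2 fold changes that crossed 0 were Ereg 0.019, Tgfa 0.026, Egfr 0.10, Errfi1 0.069, Nrg2 -0.015, Adam12 0.015, Lrig3 0.032 and Spred1 0.050. With sums per assembled locus, the log2 fold changes that crossed 0 were Ereg 0.019, Tgfa 0.026, Egfr 0.10, Errfi1 0.069, Nrg2 -0.015, Adam12 0.015, Lrig3 0.032 and Spred1 0.050. With single rats left out, values on both sides of 0 were found for Areg -0.0028 to 0.39, Egfr -0.028 to 0.032, Erbb2 -0.19 to 0.12, Erbb3 -0.27 to 0.058, Adam12 -0.22 to 0.0037, Spred1 -0.091 to 0.038 and Phlda1 -0.18 to 0.016. The setting with annotated transcripts and without model replicate 3, and that with junction-sharing transcripts, were chosen after seeing the data. With 3 rats a group, the interval of the Ereg sum reaches past -1 on the log2 scale, and depth limits Areg, Ereg and both circular RNAs.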
